A study of Homo sapiens with 12 samples.

Results

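The windows around 6 genes that define epithelial identity, CDH1, EPCAM, ESRP1, GRHL2, MIR200C and MIR200B, were read for cytosine methylation in 2 lines of clear cell renal cell carcinoma, 769 and 786 in the labels. Every CCGG site within 3000 bp of 1 given hg19 position per gene was taken, which gave 160 sites out of 1019951 with a tag in any library. The sites ran over chr16:68770945-68772331 for CDH1 (15 sites), chr2:47593723-47598280 for EPCAM (20), chr8:95650779-95654979 for ESRP1 (36), chr8:102504754-102506795 for GRHL2 (19), chr12:7069901-7073345 for MIR200C (16) and chr1:1097517-1103341 for MIR200B (54). The positions were used as given, and no gene annotation of hg19 was used here. Distances from them are in bp, negative toward lower coordinates. All 6 windows were tested alongside 6000 bp tiles of the rest of the genome, with a minimum of 10 MspI tags per MspI library and of 10 HpaII tags in total.

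Each line gave 1 untreated control and 2 samples treated with ascorbic acid (AA), here AA1 and AA2 after the number in their labels. Dose, duration and whether the 2 AA samples were separate cultures are not given in the sources used here, so SDs and p-values measure only the spread between these samples, which may be technical. DNA of each sample was cut in separate reactions with HpaII, which is blocked by a modified inner cytosine in CCGG, and with MspI, which is not. A ratio near 0 of the HpaII tag share to the MspI tag share therefore reads a modified window, and higher ratios read an unmodified one. Both shares are out of all tags of the library on chromosomes 1 to 22 and X, so a ratio of 1 is the genome-wide mean of that sample.

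E-cadherin (CDH1) holds epithelial cells together at adherens junctions, and EPCAM is a surface adhesion protein of most simple epithelia. ESRP1 directs epithelial forms of splicing, and GRHL2 is a transcription factor that activates epithelial genes. The miR-200 microRNAs come from 2 clusters and repress ZEB1 and ZEB2, which in turn repress CDH1. Methylation of CpG-rich starts of these genes is a known route by which carcinoma cells silence them, and TET enzymes, which oxidise methylated cytosine, use ascorbic acid as a cofactor.

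The microRNA sequences are shown because a CCGG site lies inside several of them, so that methylation of RNA-coding bases could be read in samples with tags there. Of the 6 genes, 2 matched the RefSeq microRNA table (GRCh38.p14). The mature strands of both clusters follow, 5′ to 3′, with the seed (bases 2 to 8) in capitals. MIR200B shares its cluster with miR-200a and miR-429, and MIR200C shares its cluster with miR-141. The first 3 carry the seed AAUACUG and the last 2 carry AACACUG.
hsa-miR-200b-3p: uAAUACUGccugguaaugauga
hsa-miR-200c-3p: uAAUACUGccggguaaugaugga
hsa-miR-429: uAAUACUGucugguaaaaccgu
hsa-miR-200a-3p: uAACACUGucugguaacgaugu
hsa-miR-141-3p: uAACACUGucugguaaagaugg
In the hairpins of the MIR200C cluster the capitals mark CCGG, a motif that reads the same on both strands.
MIR200C hairpin: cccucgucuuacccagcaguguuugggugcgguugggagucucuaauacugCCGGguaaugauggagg
MIR141 hairpin: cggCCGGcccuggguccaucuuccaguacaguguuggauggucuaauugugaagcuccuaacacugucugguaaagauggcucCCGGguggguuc
Of the 2545 mature entries in that table, 123 contain CCGG, and miR-200c-3p is one of them. The motifs of MIR141 lie 350 and 430 bp after that of MIR200C in RefSeq, and the files list sites at exactly those distances on chromosome 12, at 7072915, 7073265 and 7073345 (hg19).

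The MspI libraries held 3785890 to 12442031 tags and the HpaII libraries of 769 held 3111094 to 6922795. The 786 control HpaII library held 189704 tags, against 11054037 and 4012468 in the 786 AA libraries, so each AA effect in 786 rests on a shallow control. Of the 160 sites, MspI tags were seen at 65 to 129 per library. HpaII tags were seen at 22, 67 and 32 sites in the 769 control, AA1 and AA2, and at 7, 59 and 65 in the same samples of 786. In tested windows as a whole 20.2%, 46.0%, 24.9%, 6.27%, 42.1% and 45.0% of listed sites had an HpaII tag in the same 6 samples, against 13.8%, 41.9%, 20%, 4.38%, 36.9% and 40.6% here. Single sites were thinly sampled: 24 of the 160 had a tag in all 6 MspI libraries, and 4 had at least 10 in each. Tags came from PCR without molecular identifiers, so the intervals and floors given cover counting error only.

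**Figure D1:**
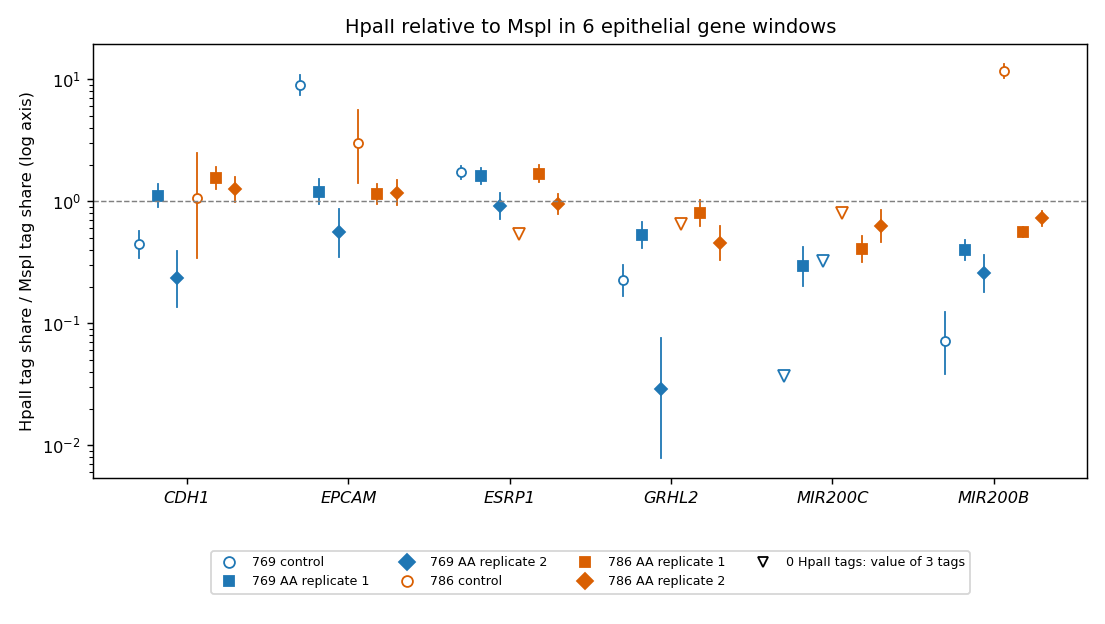
HpaII tag share over MspI tag share (log axis) in each gene window, with blue for 769 and orange for 786; circles are controls, squares and diamonds the AA samples, bars the 95% counting interval, and open triangles the value that 3 HpaII tags would give where 0 were seen. CDH1, EPCAM and ESRP1 lie mostly near 1, GRHL2, MIR200C and MIR200B mostly below it, with the 786 control of MIR200B at 11.7 and the 769 control of EPCAM at 8.95.

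Over the 6 samples the median ratio was 1.09 for CDH1, 1.19 for EPCAM and 1.28 for ESRP1, and 0.340 for GRHL2, 0.147 for MIR200C and 0.482 for MIR200B. The median of all 29697 tested windows was 0.784. A site is listed where any library, HpaII included, held a tag, so a window cut more by HpaII can list more sites. Windows with many listed CCGG sites stood higher, at 1.48 for those with 20 to 39 and 1.54 for the 617 with 40 or more. Beside its own size class MIR200B therefore lay low, at the 16th percentile, with MIR200C at the 24.7th and GRHL2 at the 33.3rd. CDH1, EPCAM and ESRP1 lay at the 53.1st, 42.7th and 45.2nd percentiles of theirs. Samples with 0 HpaII tags entered these medians as a ratio of 0. They were the 769 control, 769 AA2 and the 786 control at MIR200C, where 3 tags would have given 0.0367, 0.326 and 0.807. At GRHL2 and ESRP1 it was the 786 control, where 3 tags would have given 0.649 and 0.543. The low medians of MIR200C and GRHL2 thus rest partly on samples where a higher ratio was not detectable. In the 786 control 52.0% of all tested windows had 0 tags as well. These ranks are descriptions without a test.

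In the CDH1 window the ratio in 769 was 0.446 in the control (95% interval 0.344 to 0.571), 1.11 with AA1 (0.894 to 1.39) and 0.237 with AA2 (0.135 to 0.394). In 786 it was 1.06 in the control (0.341 to 2.51, from 5 HpaII tags), 1.55 with AA1 and 1.25 with AA2. The 2 AA samples of 769 lay on opposite sides of their control, and the range of 769 overlapped that of 786. Intervals are exact Clopper-Pearson limits converted to the ratio. HpaII tags at CDH1 stayed close to the gene position. From -1000 to 0 bp 4 sites held 422 HpaII and 218 MspI tags, and from 0 to 1000 bp 8 sites held 318 and 591. From 1000 to 2000 bp 3 sites held 1 HpaII tag beside 351 MspI tags, with 41 to 113 of the latter in each sample. The site with the most HpaII tags, chr16:68771052 at -143 bp, held 136 and 52 in the 786 AA samples, 84 and 1 in the 769 AA samples, 1 in the 769 control and 0 in the 786 control. The site nearest the position, at -35 bp, held 54 HpaII tags in 786 AA2 and at most 6 in any other sample. Without the site at -143 bp the ratio in 786 was 1.23 in the control, 1.00 with AA1 and 0.727 with AA2, so that the AA samples, which lay above the control, lay below it. The site with the most MspI tags, at 116 bp, had 213 MspI and 22 HpaII tags in all.

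EPCAM had the highest ratio among these genes in 769, and it came from the control. The control stood at 8.95 (95% interval 7.42 to 10.9), with 546 HpaII and 138 MspI tags, against 1.19 with AA1 and 0.556 with AA2. In 786 it was 2.99 in the control (1.41 to 5.62, from 10 HpaII tags), 1.14 with AA1 and 1.18 with AA2. Both controls thus lay above both of their AA samples, whose mean was 0.874 ± 0.450 (SD, n = 2) in 769 and 1.16 ± 0.0261 (SD, n = 2) in 786. The MspI reference was also at its lowest in the 769 control, at 12.1 CPM (tags scaled to the library total) against 19.6 to 31.0 in the other 5 samples. In a fit of HpaII tags alone the log2 change with AA in 769 was -2.51, against -3.44 relative to MspI. Beyond that fit the part of the MspI reference was not tested. Of 1234 HpaII tags, 1230 lay at the 14 sites from 0 to 1000 bp, beside 764 MspI tags. The 5 sites without an HpaII tag held 66.5 MspI tags. In the 769 control 191 of the 546 tags lay at 1 site, at 744 bp, where the other 769 samples held 0 and 1. Without that site the 769 ratios were 5.82 in the control, 1.25 with AA1 and 0.537 with AA2, so the control was still the highest. The site at 815 bp had at least 10 MspI tags in each MspI library and held HpaII tags in 2 samples, 5 in 769 AA1 and 13 in 786 AA1.

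ESRP1 was cut by HpaII at most of its sites. The 33 with an HpaII tag ran from -2208 to 1615 bp, and 3 sites had none. The ratio in 769 was 1.73 in the control, 1.61 with AA1 and 0.911 with AA2. In 786 the AA samples stood at 1.68 and 0.95, within the range of 769. The 786 control held 0 HpaII tags beside 287 MspI tags, where 3 tags would have given 0.543. In that control 25 of the 36 sites had an MspI tag. In the 769 control HpaII tags were confined to 5 of the 36 sites, all between 550 and 1096 bp, with 247 of 471 tags at 960 bp. In the 769 AA samples HpaII tags were seen at 22 and 10 sites, and at -72 bp AA1 held 22 and AA2 held 50, against 0 in the control. This site had 0 HpaII tags in 786 AA1 and 7 in 786 AA2. The site with the most MspI tags, at 852 bp, held 376 of them and 17 HpaII tags, all from 769 AA1.

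At GRHL2 all 19 listed sites lay on 1 side of the position, from 86 to 2127 bp. The ratio in 769 was 0.227 in the control (95% interval 0.168 to 0.300), 0.530 with AA1 and 0.0290 with AA2, where 4 HpaII tags stood beside 180 MspI tags. In 786 it was 0.799 with AA1 and 0.454 with AA2. The 786 control held 0 HpaII tags beside 240 MspI tags, and 3 tags would have given 0.649. The lines overlapped, and within 769 the AA samples again lay on either side of the control. Few sites carried the signal. In the 769 control 53 of 54 HpaII tags lay at 1054 bp, a site with 0 HpaII tags in the other 5 samples. In 786 AA1 151 of 165 lay at 950 bp, where 769 AA1 held 48, and in 786 AA2 27 of 51.5 lay at 86 bp. That last site, the nearest to the position, had 12 to 126 MspI tags in each MspI library and 0 HpaII tags in the other 5 samples. Of the 19 sites, 9 had no HpaII tag in any sample beside 439 MspI tags.

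**Figure D2:**
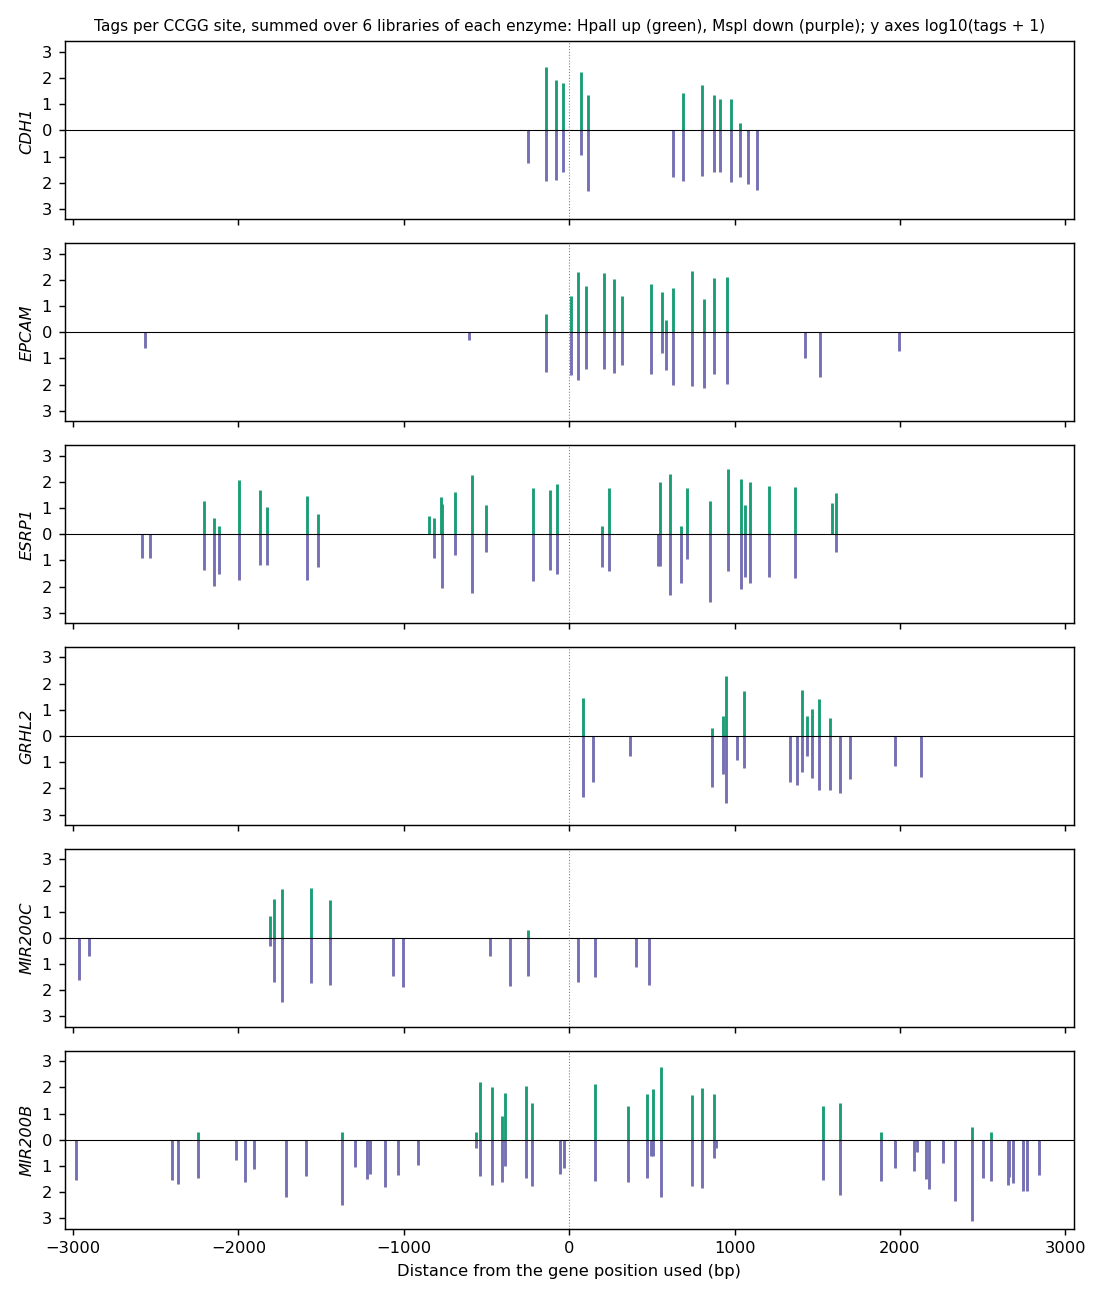
Tags at each listed CCGG site by distance from the gene position in bp, summed over the 6 HpaII libraries (green, upward) and the 6 MspI libraries (purple, downward), on log10(tags + 1) axes, 1 panel per gene. HpaII tags fill most of the ESRP1 sites, end near 1000 bp at CDH1 and EPCAM, stay upstream of the hairpin at MIR200C and form a block flanked by uncut sites at MIR200B.

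The MIR200C window was split along its length. From -2000 to -1000 bp 7 sites held 224 of its 225 HpaII tags, beside 550 MspI tags. The 4 sites from 0 to 1000 bp, where the hairpins lie, held 0 HpaII tags beside 149 MspI tags, with 0 of the latter in the 786 control. The CCGG inside miR-200c-3p, printed above, had 47 MspI tags, 16 and 18 in the 769 control and AA1 and 13 in 786 AA2. It had 0 HpaII tags in these samples. In 769 AA2, the 786 control and 786 AA1 it had 0 tags of either enzyme, so it was not read there. The 2 sites of the MIR141 hairpin also had 0 HpaII tags, beside 12 and 61 MspI tags. In the upstream zone the 786 AA samples held 122 and 62 HpaII tags and the 786 control 0, beside 140 MspI tags. The 769 control held 0 beside 134 MspI tags. AA1 of 769 held 40, all at -1562 bp, and AA2 held 0 beside 1 MspI tag. The ratio over the whole window was 0.295 in 769 AA1, 0.407 in 786 AA1 and 0.630 in 786 AA2. It was 0 in the other 3, where 3 tags would have given 0.0367 in the 769 control, 0.326 in 769 AA2 and 0.807 in the 786 control. The 769 control lay below the 3 cut samples even at 3 tags. The value of 769 AA2 at 3 tags, from 12 MspI tags in the window, lay below both 786 AA samples and above 769 AA1. For the 786 control a difference from the cut samples was not detectable at this depth.

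MIR200B showed a block of cut sites between uncut flanks. From -1000 to 0 bp 10 sites held 464 HpaII and 251 MspI tags, and the 10 sites from 0 to 1000 bp held 1099 and 388. From 1000 to 2000 bp 4 sites held 45 and 207. On the far side, from 2000 to 3000 bp, 15 sites held 3 HpaII tags beside 1964 MspI tags. On the near side the zones from -3000 to -2000 bp and from -2000 to -1000 bp held 1 HpaII tag each, beside 145 and 684 MspI tags. In the far zone the 769 samples had 1 HpaII tag each and the 786 samples 0, beside 136 to 574 MspI tags per sample. The 0 of the 786 control carries less weight, since that library was the shallowest. The site with the most MspI tags, at 2433 bp, held 48 to 491 MspI tags in each MspI library and 2 HpaII tags in all, and the site at 2334 bp held 10 to 88 in each and 0 HpaII tags. A CCGG also lies in miR-200a-5p (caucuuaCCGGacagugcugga), 1122 bp before the one in the MIR429 hairpin. In the files 2 pairs of sites have that distance, so the site in miR-200a cannot be told apart between chr1:1103245 and chr1:1103267. Both candidates held 0 HpaII tags, beside 89 and 91 MspI tags.

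**Figure D3:**
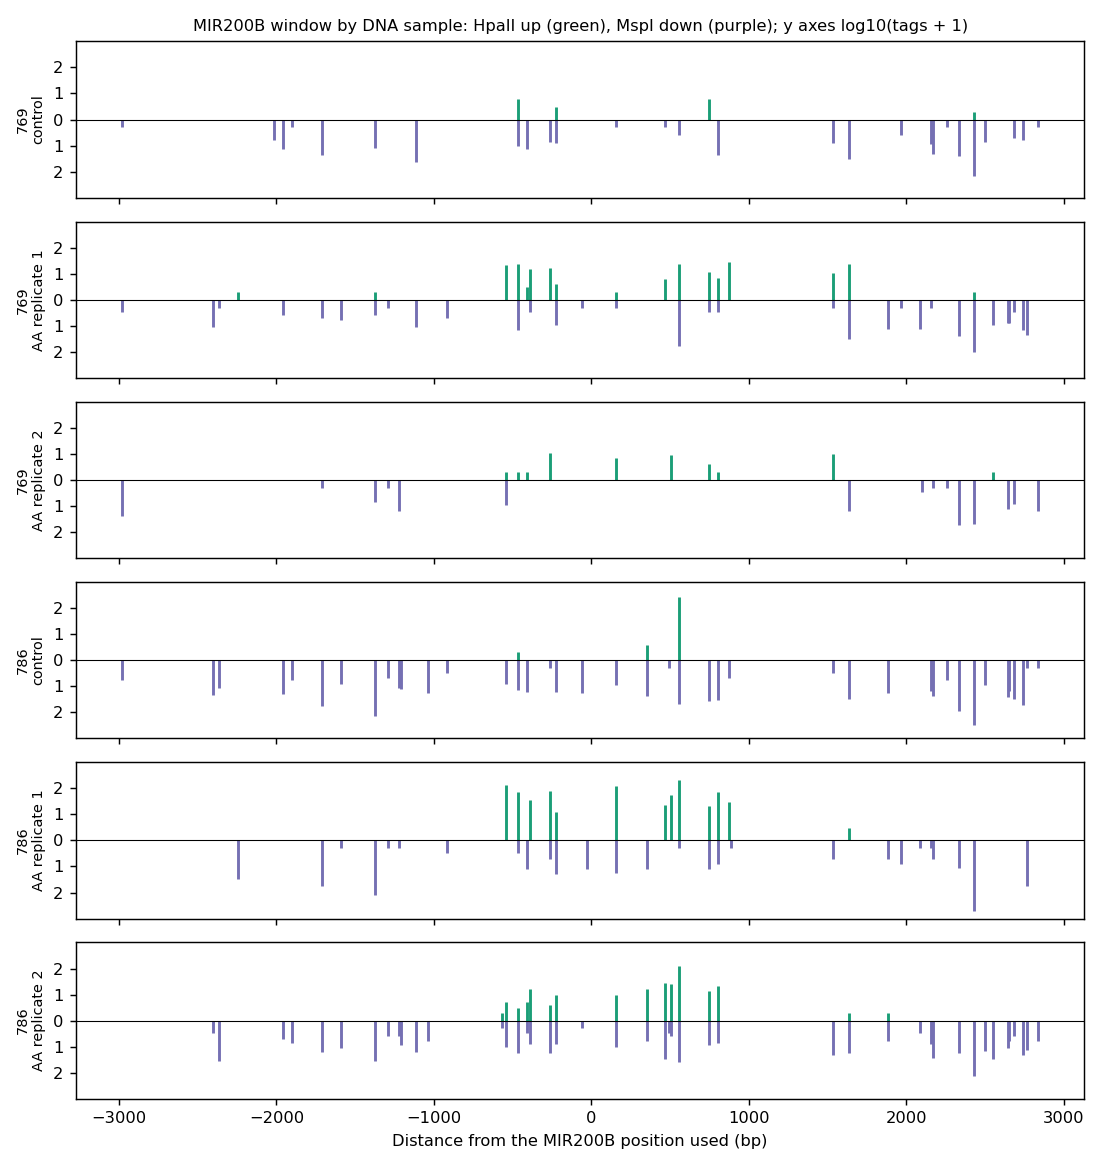
The MIR200B window in each DNA sample, with HpaII tags upward (green) and MspI tags downward (purple) on log10(tags + 1) axes against distance from the position in bp. In the 5 samples other than the 786 control HpaII tags spread over 4 to 17 sites, mostly in the central block, and in the 786 control 255 of 259 lie at 555 bp.

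Over the whole MIR200B window the ratio was 0.0723 in the 769 control, 0.400 with AA1 and 0.260 with AA2. In 786 it was 11.7 in the control, 0.564 with AA1 and 0.724 with AA2. All 3 values of 786 lay above all 3 of 769, which held for 1 of the 6 genes and for 8.56% of tested windows. The reverse order was seen in 0 of the 6 and in 6.08% of tested windows. The separation rested on 1 site. In the 786 control 255 of 259 HpaII tags lay at chr1:1101055, at 555 bp, which also held 200 and 119 in the 786 AA samples, 23 in 769 AA1 and 0 in the other 769 samples. Without that site the ratio in 786 was 0.189 (from 4 HpaII tags), 0.431 and 0.431 and in 769 it was 0.0728, 0.413 and 0.260, and the lines overlapped. The MspI reference differed too. The MspI share was 35.6, 74.4 and 59.3 CPM in 769 and 138, 156 and 102 in 786, without overlap.

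**Figure D4:**
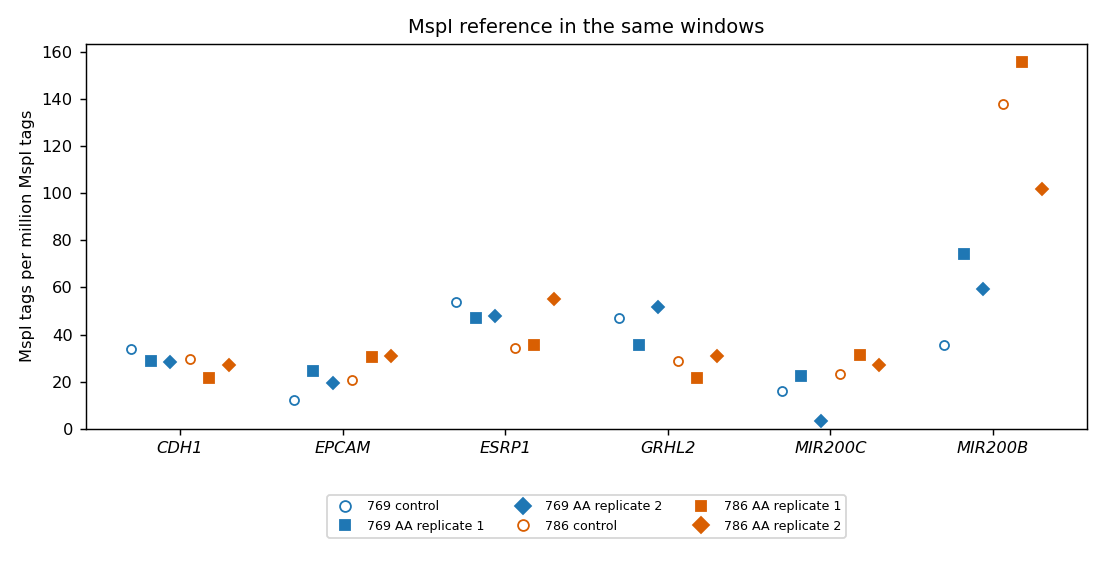
MspI CPM in each gene window and DNA sample, blue for 769 and orange for 786, circles for controls, squares for AA1 and diamonds for AA2. The 786 samples lie above 100 at MIR200B, where the 769 samples lie between 35.6 and 74.4.

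MspI tag shares of all 3 samples of 786 lay above all 3 of 769 in 2 of the 6 genes, MIR200B and MIR200C, beside 6.47% of tested windows. For MIR200C they were 16.2, 22.3 and 3.46 CPM in 769 and 23.2, 31.1 and 26.9 in 786. They lay below in 1 gene, GRHL2, at 47.2, 35.5 and 51.8 in 769 and 28.8, 21.5 and 31.0 in 786, beside 9.76% of tested windows. In a fit of HpaII tags alone the log2 difference, 786 minus 769, was 3.54 for MIR200B, 2.30 for MIR200C and 0.013 for GRHL2. Relative to MspI it was 2.84, 1.80 and 1.09. Beyond that fit the part of these MspI differences in the ratios was not tested.

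The lines were compared with edgeR's quasi-likelihood test of the change of HpaII relative to MspI, with Benjamini-Hochberg adjustment over all tested windows. None of the 6 genes passed an adjusted p under 0.05 between 786 and 769, where 1.31% of windows did, and 1 of the 6 had an unadjusted p under 0.05, as did 15.4% of windows. The log2 difference, 786 minus 769, was 2.84 ± 0.85 (SE) for MIR200B (edgeR adjusted p = 0.108), 1.80 ± 1.83 for MIR200C, 1.32 ± 1.02 for CDH1 and 1.09 ± 1.39 for GRHL2. It was -0.19 ± 0.90 for EPCAM and -0.83 ± 0.87 for ESRP1. The median of the 6 was 1.21 and that of all windows 0.32. DESeq2 called 1 of the 6, MIR200B (DESeq2 adjusted p = 0.038), beside 12.7% of windows. In a fit without the top HpaII site of every window, at MIR200B the site at 555 bp, the MIR200B difference fell to 0.52 (edgeR adjusted p = 0.80). Without the 769 control it was 0.90 and without the 786 control 0.97 (edgeR adjusted p of 0.376 and 0.448). For the other 5 genes the SEs ran from 0.87 to 1.83 on the log2 scale, so differences of that size were not detectable. The MIR200C difference was unstable, since in 769 only AA1 held HpaII tags there, 40 of 41 at 1 site. It was 5.37 in the fit without top sites and ran from 0.90 to 4.76 on leaving out 1 DNA sample.

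For AA against control over both lines edgeR called 0 of the 6 genes at an adjusted p under 0.05, beside 0.0438% of windows, and 2 had an unadjusted p under 0.05, as did 10.7%. DESeq2 also called 0 of the 6, beside 2.91% of windows. EPCAM had a log2 change of -2.32 ± 0.99 (SE, edgeR adjusted p = 0.412) with 4 of 4 AA samples below their own control. CDH1, ESRP1, GRHL2 and MIR200B had log2 changes of 0.43, 0.90, 0.79 and -1.11, with SEs of 0.98 to 1.53. No fitted change is given for MIR200C, whose controls both held 0 HpaII tags. The median of all tested windows was 1.11 in this comparison. That median includes windows whose control held 0 HpaII tags, 34.9% of them in 769 and 52.0% in 786. Among alternatives that kept all 6 DNA samples the median ran from 0.061 to 1.28. The lowest came from the 3618 windows left where each HpaII library had to hold 10 tags, and the highest from 1000 bp each side. After thinning it was 0.36. Whether a value near 0 lies below the typical window thus depends on the filter.

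By line, edgeR called 0 of the 6 genes for AA in 769, beside 0.495% of windows, with 3 at an unadjusted p under 0.05, beside 14.4% of windows. MIR200B was higher in both AA samples (log2 change 2.15 ± 0.58 SE, edgeR adjusted p = 0.112), at 4.56 times the control, and still was without the site at 555 bp (0.413 and 0.260 against 0.0728). This order, with both AA samples above the control, held for 1 of the 6 genes and for 35.0% of windows. EPCAM and ESRP1 were lower in both AA samples, as were 24.4% of windows, with log2 changes of -3.44 ± 1.05 (SE, edgeR adjusted p = 0.149) and -0.51 ± 0.79 (SE). DESeq2 called MIR200B and EPCAM in 769 (DESeq2 adjusted p of 0.0051 and 0.0026), beside 11.7% of windows. CDH1 and GRHL2 had AA samples on both sides of the control, with log2 changes of 0.25 ± 1.26 and -0.56 ± 1.57 (SE). At ESRP1 the site at 960 bp set the direction: without it the 769 control stood at 0.821 against 1.58 and 0.911 with AA.

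In 786 edgeR called 1 of the 6 genes, MIR200B, lower with AA, beside 0.0539% of windows, and 2 had an unadjusted p under 0.05, beside 8.38%. DESeq2 also called MIR200B alone of the 6, beside 0.428% of windows. The log2 change of MIR200B was -3.93 ± 0.54 (SE, edgeR adjusted p = 0.028). The AA samples averaged 0.644 ± 0.113 (SD, n = 2) against 11.7 in the control, lower in 2 of 2. The call rested on the site at 555 bp. In the fit without the top HpaII site of every window, here that site, the change was 1.72 in the other direction (edgeR adjusted p = 0.50). The control ratio without the site at 555 bp was 0.189, below both AA samples, but from only 4 HpaII tags beside 1100 MspI tags. Without 769 AA1 or 769 AA2, which enter through the pooled spread, the change stayed at -3.85 and -3.89 but was no longer called (edgeR adjusted p of 0.112 and 0.0606). Both AA samples of 786 lay above the control in 4 of the 6 genes, beside 58.2% of windows, and below it in EPCAM and MIR200B, beside 21.4%. In 3 of those 4 genes the control held 0 HpaII tags, as it did in 52.0% of tested windows. At ESRP1 the mean of the AA samples was 2.42 times the ratio that 3 tags would give in that control (edgeR adjusted p = 0.376). The upper 95% counting limit of the ESRP1 control was 0.672, beside 1.68 and 0.95 with AA. At GRHL2 and MIR200C the mean of the AA samples lay below the ratio that 3 tags would give, so a rise was not detectable at this depth. CDH1 stood at 1.40 ± 0.207 (SD, n = 2) with AA against 1.06, a log2 change of 0.66 ± 1.38 (SE, edgeR adjusted p = 0.90). With controls of 0 tags set to 3, the median log2 change with AA over the 6 genes was 0.45 in 769 and -0.34 in 786, beside 0.36 and -0.60 over the 28048 and 28860 windows with an AA tag in that line.

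The AA effect differed between the lines at MIR200B, with a log2 difference of -6.08 ± 0.79 (SE, 786 minus 769, edgeR adjusted p = 0.037). It was the only 1 of the 6 genes called, beside 0.0101% of windows, and 2 had an unadjusted p under 0.05, beside 10.4%. DESeq2 also called MIR200B alone of the 6, beside 3.87% of windows. In the fit without the top HpaII site of every window, here the site at 555 bp, the edgeR difference was -0.47 (edgeR adjusted p = 1.0). Without 769 AA1 or 769 AA2 it stayed at -5.85 and -6.26 but was no longer called (edgeR adjusted p of 0.157 and 0.113). For EPCAM the difference was 2.35 ± 1.49 (SE, edgeR adjusted p = 0.66) and for CDH1 0.41 ± 1.86 (SE, edgeR adjusted p = 1.0).

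Thinned to the tag total of the smallest HpaII library, the 786 control, the CDH1 window kept 3, 2 and 2 HpaII tags in the 769 control, AA1 and AA2, and 5, 10 and 9 in the same samples of 786. EPCAM kept 14, 7 and 0 in 769 and 10, 7 and 4 in 786, and ESRP1 kept 23, 12 and 4 in 769 and 0, 14 and 8 in 786. At an equal number of tags, which are PCR copies and not molecules, GRHL2 kept at most 4 tags and MIR200C at most 3 in any sample. MIR200B kept 0, 5 and 9 in 769 and 259, 12 and 9 in 786. Thinning left the 786 control itself unchanged, so its 0 at ESRP1 is the original count. The 786 AA libraries, thinned to its tag total, kept 14 and 8 there.

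Compared over the 6 samples by the mean absolute difference of log2 ratios (0.5 tags added), CDH1 was closest to EPCAM, at 1.26, and GRHL2 to MIR200C, at 1.42. The widest pair was EPCAM and MIR200C, at 3.81. Among the other tested windows those most like CDH1 were chr8:144852001-144858000, chr5:40680001-40686000 and chr9:132378001-132384000 (hg19), at 0.262, 0.321 and 0.326.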

How the data were processed

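Methylation was read by HELP-tagging in 12 libraries of 6 DNA samples. Per the labels' protocols, DNA cut with HpaII or MspI was ligated to adapters, trimmed to short tags with EcoP15I, transcribed, reverse transcribed and amplified in 18 PCR cycles. The deposited files hold the expected count of tags at each CCGG site, not normalized, in hg19 coordinates per the submitters' processing notes. Counts differed from a whole number (tolerance 1e-06) at 8.23% to 11.5% of a library's sites. The sources used here name no aligner.

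Tags were summed per window and rounded for tests. The 6 gene windows and 6000 bp tiles that touch none of them were fitted with edgeR 4.0.16 (R 4.3.3) using terms for DNA sample, enzyme, enzyme by line and enzyme by AA (or by AA within each line) and TMM factors within each enzyme. SEs were taken from the fitted change and its F statistic. Each line has 1 control, so the spread comes from both lines together. The fit for AA over both lines was tested on simulated counts with 200 windows changed 8-fold. It recovered 37.5% of them, with 1 false call among 76 calls, so it can miss large changes. The changed windows were drawn from those with more HpaII tags. All windows were simulated with the same spread and without a difference between lines. Recovery in windows with fewer tags was not simulated, so these figures may not hold for the gene windows. Alternatives were DESeq2 1.42.0, other scaling, filters, window sizes, thinning, HpaII alone, a replicate block, and leaving out each DNA sample. In another fit the top HpaII site of every window was left out, with 21243 windows tested. Named sites were those nearest the position, with the most tags, or with at least 10 MspI tags in each MspI library; the GRHL2 site at 1054 bp and the sites in microRNAs were picked after their values were seen. Tags along each window were summed in 1000 bp zones, chosen after the sites had been seen. Python 3.11.15 was used for sites and figures. The genes and windows were chosen with earlier results of these data known.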

Additional observations from a re-analysis of the deposited data

Results flagged for a closer look

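At MIR200B the AA effect differed between the lines, with a log2 difference of -6.08 ± 0.79 (SE, 786 minus 769, edgeR adjusted p = 0.037): both AA samples of 769 lay above their control and both of 786 below theirs. In the 786 control 255 of 259 HpaII tags lay at 1 CCGG site. In a fit without the top HpaII site of every window, here that site, the difference was -0.47 (edgeR adjusted p = 1.0).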

How the results depend on the processing

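The number of windows called moved by over 1.5 times in most alternatives. For AA over both lines the count was 13. It was 865 with DESeq2, 0 where each HpaII library had to hold 10 tags (edgeR, 299 at an unadjusted p under 0.05), 81 with no filter, 36 after thinning, 49 with HpaII alone, 90 with 1000 bp each side and 125 with 5000 bp. For 786 against 769 it was 388, and 3765, 4, 365, 213, 663, 694 and 697 in the same order. For AA in 769 it was 147, and 3477, 100, 460, 10, 1756, 361 and 366. For AA in 786 it was 16, and 127, 23, 352, 142, 296, 16 and 19. For the difference between lines it was 3, and 1149, 38, 312, 66, 1095, 26 and 11, with 17 without TMM and 17 without the top site. Leaving out 1 DNA sample gave 0 to 119 for AA over both lines, 0 to 383 between lines, 0 to 803 for AA in 769, 11 to 202 for AA in 786 and 1 to 310 for their difference. The counts of 0 came without 769 AA replicate 2 (edgeR, 4169, 4156 and 6386 unadjusted) and, over both lines, without 769 AA replicate 1 (2897 unadjusted). Without either control no AA effect over both lines was taken, and none in that line could be fitted.

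The main fits did not pair AA numbers 1 and 2 across lines. The correlation of their differences was -0.014 over windows, which cannot show whether equal numbers were prepared together. With the replicate block the counts were 65, 842, 898, 169 and 376 for the same 5 comparisons, and MIR200B passed between lines (edgeR adjusted p = 0.00042) and for AA in 769 (0.0447). Among all alternatives MIR200B passed in 7 of 15 between lines and in 7 of 14 for AA in 769. DESeq2, no filter and HpaII alone were among them in both comparisons. Leaving out the top HpaII site was among them in neither. Of 409 gene values under the alternatives, 367 kept direction and side of the threshold, 17 newly passed, 5 no longer passed and 20 changed sign. Without the top HpaII site MIR200B turned to 1.98 for AA over both lines and 1.72 in 786, GRHL2 to -0.64 over both lines, EPCAM to 0.14 between lines, ESRP1 to 0.57 for AA in 769 and CDH1 to -0.067 for the difference. Leaving out 1 DNA sample gave -0.68 to 0.49 for EPCAM, -1.68 to 0.055 for ESRP1 and -0.38 to 2.24 for GRHL2 between lines. It gave -0.089 to 2.09 for GRHL2 for AA over both lines, -2.78 to 1.14 for GRHL2 and -0.74 to 1.24 for CDH1 for AA in 769, and -0.54 to 1.48 for CDH1 for the difference. EPCAM between lines was 0.41 with HpaII alone. In 769 CDH1 was -0.40 and GRHL2 0.29 after thinning, and GRHL2 was 0.46 with the block and 4.99 with 1000 bp. MIR200C was -2.86 ± 3.47 (SE) for the difference with DESeq2. Both of its controls held 0 HpaII tags, so this difference could not be estimated and its sign carries no weight. The cause of the other changes of sign was not tested. Library totals without TMM moved the median window from 2.91 to 2.72 for AA in 786.

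Besides the 1000 bp zones, 3 rules for a span drawn from the HpaII tags themselves were tried after the sites had been seen, and the text uses none of them. They put 66.3%, 18.2% and 21.7% of the MIR200B MspI tags inside the span, and 58.6%, 49.1% and 83.3% of those of GRHL2, so the limits of a cut stretch depend on the rule. At CDH1 the 3 rules gave the same span.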
